A study of Mus musculus with 6 samples.

Results

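MYC and the genes of ribosome production were followed here as a list of 40 genes, among them Myc and Mycn, their partner Max, and the factors that transcribe, modify and assemble ribosomal RNA. They were found by matching mouse symbols to the Ensembl identifiers of the count tables. All 40 were matched among 46983 listed genes, and all 40 had enough reads to be tested, among 12292 tested genes in all. The list goes by gene name and role, and its rule uses no measured value, though it was chosen with earlier results of these data known.

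Messenger RNA was sequenced from colonies that lineage-depleted bone marrow cells of C57BL/6 mice formed in methylcellulose that held IL-3, IL-6 and mouse stem cell factor (mSCF), and colonies were harvested after 6 to 7 days. Mice were 8 to 11 weeks old by the sample labels, and 8 to 10 weeks by the growth protocol. The WT group of 3 libraries is wild type by its sample labels and PsipFl/Fl by the series design, a genotype homozygous for a floxed allele. The KO group of 3 libraries is called Psip1-KO, and the design writes its genotype as PsipVav/Vav. The Vav promoter is widely used to drive Cre in blood cells, and the labels give no more about the deletion. The same protocols are given for both groups, and whether each library stands for its own animal is not stated, so the p-values measure the spread between libraries, which may be technical. Psip1 encodes LEDGF, a chromatin reader that holds the MLL and menin complex on active genes, and the series set its role in hematopoiesis against that in MLL-rearranged leukaemia.

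MYC is a transcription factor that binds DNA as a dimer with MAX, most strongly at the E-box CACGTG, and genes of ribosome production are among its best known targets. Ribosomal RNA is copied by RNA polymerase I in the nucleolus, modified by small nucleolar ribonucleoproteins (snoRNPs), and built into the small and the large ribosomal subunit by separate sets of assembly factors. In blood, MYC and this machinery are prominent in dividing progenitors and lower in cells that have matured.

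The E-box was read in promoter windows from RefSeq (GRCm38.p6), which run from 250 bases before to 50 after a gene's start. Windows were given for 33 of the 40 genes, and 7 of these (21.2%) held CACGTG, a motif that reads the same on both strands. The share was 8.09% over all 27025 genes with a window, many of which were not among the tested genes. Sites outside the windows were not read. No window was given for Myc, Fbl, Rrp12, Bop1, Rrs1, Npm1 and Srm. The 7 stretches are printed because they are the shared sequence of the members that hold the motif. Capitals mark the E-box, and up to 10 bases stand on either side. Distances are to the first base of the motif in the gene's direction, so the E-box of Max spans the start.
Max, chr12:76962236-76962261, minus strand, motif 3 bases before the start: tgagcccggtCACGTGttagggggcc
Nop2, chr6:125131813-125131838, plus strand, motif 60 bases before the start: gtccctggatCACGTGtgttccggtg
Pes1, chr11:3963967-3963992, plus strand, motif 3 bases after the start: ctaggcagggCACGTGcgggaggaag
Wdr43, chr17:71616222-71616247, plus strand, motif 18 bases after the start: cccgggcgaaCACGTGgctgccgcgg
Tsr1, chr11:74898094-74898119, plus strand, motif 25 bases after the start: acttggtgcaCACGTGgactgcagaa
Utp20, chr10:88826765-88826787, minus strand, motif 38 bases after the start: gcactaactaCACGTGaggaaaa
Mybbp1a, chr11:72441357-72441376, plus strand, motif 41 bases after the start: cttctgagccCACGTGtttg
A match is a description of these letters, and binding was not measured in these samples.

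Depth was uneven. Reads on genes ranged from 7056614 to 15569088 in 5 libraries, called deep below, and WT replicate 3 held 27909. One read in that library was worth 29.9 normalised CPM (the usual depth-scaled read count, here with TMM factors), and 0 reads there allow up to 89.6 CPM, the level of 3 reads (a one-sided limit, where the two-sided 95% intervals used for this library reach higher). Such limits and the intervals below cover counting error only. Over the 40 genes WT replicate 3 held 147 reads, with 0 reads for 11 genes, 1 to 3 for 18 and more for 11, so its values are given as reads. Mitochondrial genes took 1.26% to 1.84% of gene reads in the deep libraries other than KO replicate 2, where they took 15.7%, and 9.52% in WT replicate 3. Psip1 itself stood at 89.3 CPM in WT replicate 1, 70.0 CPM in WT replicate 2 and at 14.8, 17.6 and 16.3 CPM across KO replicates 1 to 3, with 3 reads in WT replicate 3. The groups did not overlap and the fit gave a log2 fold change of -2.32 (SE 0.32), which missed the threshold after Benjamini-Hochberg adjustment in edgeR's quasi-likelihood test (adjusted p = 0.0599), and 0.1 was the p of an exact permutation test (two-sided), the lowest that 3 against 3 can reach.

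No gene of the MYC and ribosome production set passed the test between KO and WT colonies. By edgeR's quasi-likelihood test, 0 of 40 were called higher and 0 of 40 lower in KO at an adjusted p of 0.05 over all 12292 genes tested, where the background share called was 0% in each direction. At an unadjusted p of 0.05 the test also had 0 of the 40, against 178 of all genes (1.45%), and DESeq2 and limma-voom called 0 of the 40 as well. The lowest unadjusted p among them was 0.174, for Gnl3. Fitted log2 fold changes ran from -0.65 (Fbl) to 0.61 (Mycn), with a median of 0.03 against 0.01 over all tested genes. Positive values were found for 24 of the 40 (60%) and negative ones for 16, against 52% positive and 48% negative over all tested genes. The number of negative values was 12 with size factor scaling and 12 without the low-count filter, 20 with scaling by library size only, and 8 to 22 with 1 library left out. DESeq2, which differs in model and filter as well and had a median of -0.32 over all genes tested, gave 11.

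The size of change that the data still allow is given by the 95% intervals. For 23 of the 40 genes (57.5%) the interval stayed inside 2-fold in either direction, a share that was 33.5% over all tested genes, and for the other 17 it reached past 2-fold on at least 1 side. Standard errors ran from 0.31 to 0.63 log2 units, with a median of 0.38. Over all tested genes they ran from 0.19 to 2.63, with a median of 0.42. The shares inside 2-fold were not matched for read depth, on which the width of an interval depends. A missed threshold therefore does not show equal levels. The number of intervals inside 2-fold changed with the libraries used: it was 27 without WT replicate 3, and 8, 2, 4, 8 and 9 without WT replicates 1 and 2 and KO replicates 1 to 3.

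**Figure D1:**
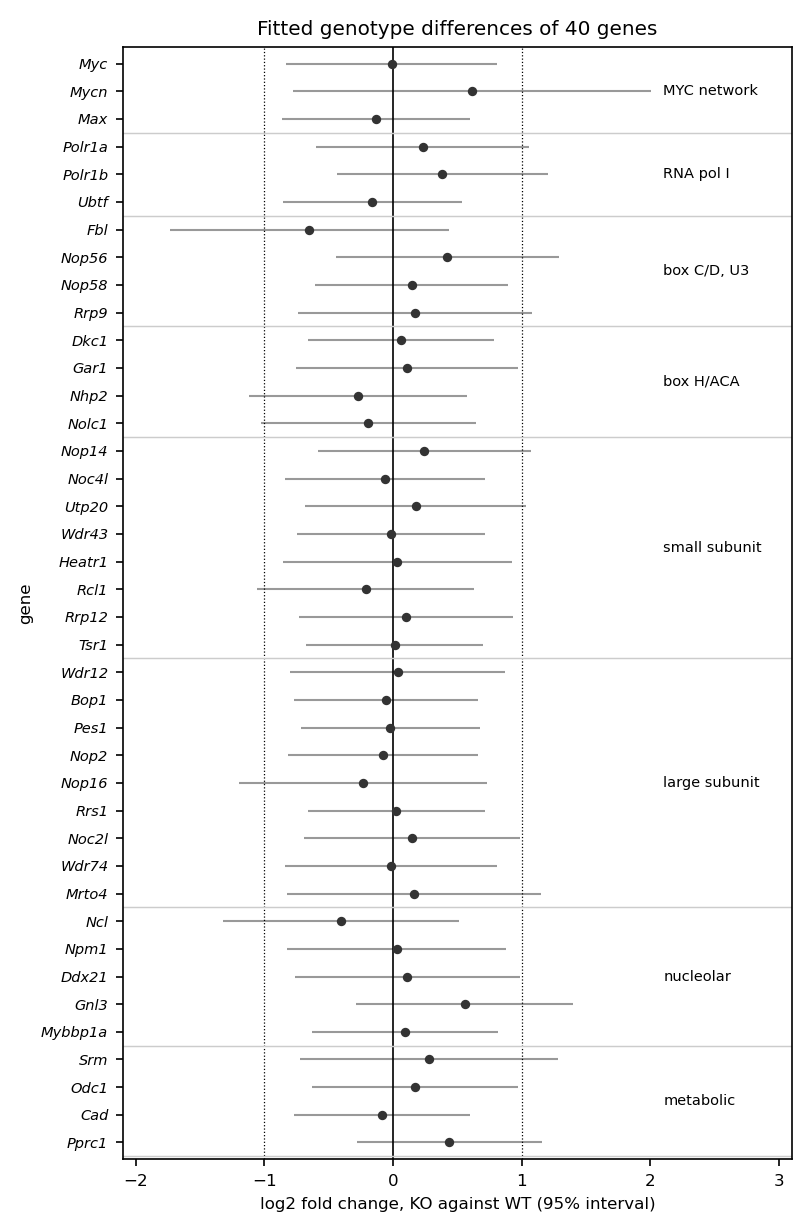
Fitted log2 fold change of KO against WT for each of the 40 genes (points) with its 95% interval (lines), grouped by role; dotted lines mark 2-fold. Every interval crosses 0, and 23 of the 40 lie between the dotted lines.

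Myc (ENSMUSG00000022346.14, plus strand of chromosome 15, 61985391 to 61990374, GRCm38) showed no difference beyond the spread between the WT libraries. It stood at 76.0 CPM in WT replicate 1, 143 CPM in WT replicate 2 and at 123, 129.7 and 88.9 CPM across KO replicates 1 to 3, a KO mean of 114 ± 21.8 CPM (SD, n = 3), with 5 reads in WT replicate 3. The lowest and the highest deep library were both WT, and the 3 KO libraries lay between them (log2 fold change -0.0099, SE 0.37, 95% interval -0.83 to 0.81). The sign of so small a value turned with the setting, to 0.055 without WT replicate 3 and 0.026 with size factor scaling.

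Max (ENSMUSG00000059436.12, minus strand of chromosome 12, 76937269 to 76962201, GRCm38), the dimer partner and 1 of the 7 genes with the E-box, was the steadier of the pair. Its levels were 92.4 CPM in WT replicate 1, 117 CPM in WT replicate 2 and 106, 111 and 84.5 CPM across KO replicates 1 to 3, with 5 reads in WT replicate 3 (log2 fold change -0.13, SE 0.33, 95% interval -0.86 to 0.60). The groups overlapped, and the highest deep library exceeded the lowest by 1.38-fold, against 1.88-fold for Myc. Averaged over the deep libraries, Max stood at 102 and Myc at 112 CPM. Per kilobase of coding sequence (480 and 1362 bases) these were 213 and 82.2 CPM, a measure that overstates genes with long untranslated ends.

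Mycn (ENSMUSG00000037169.14, minus strand of chromosome 12, 12936093 to 12941914, GRCm38), the MYC paralog of early progenitors, was scarce at 6.81 CPM per kilobase. It stood at 6.02 CPM in WT replicate 1, 7.44 CPM in WT replicate 2, on 83 and 76 reads, and at 8.10, 21.0 and 4.55 CPM across KO replicates 1 to 3, on 103, 133 and 69 reads, with 1 read in WT replicate 3. KO replicate 2 was high and KO replicate 3 was the lowest of all deep libraries, so the groups overlapped. The fitted value was the highest of the 40 genes (log2 fold change 0.61, SE 0.63, 95% interval -0.78 to 2.01), and it rested on KO replicate 2, without which it was -0.22.

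**Figure D2:**
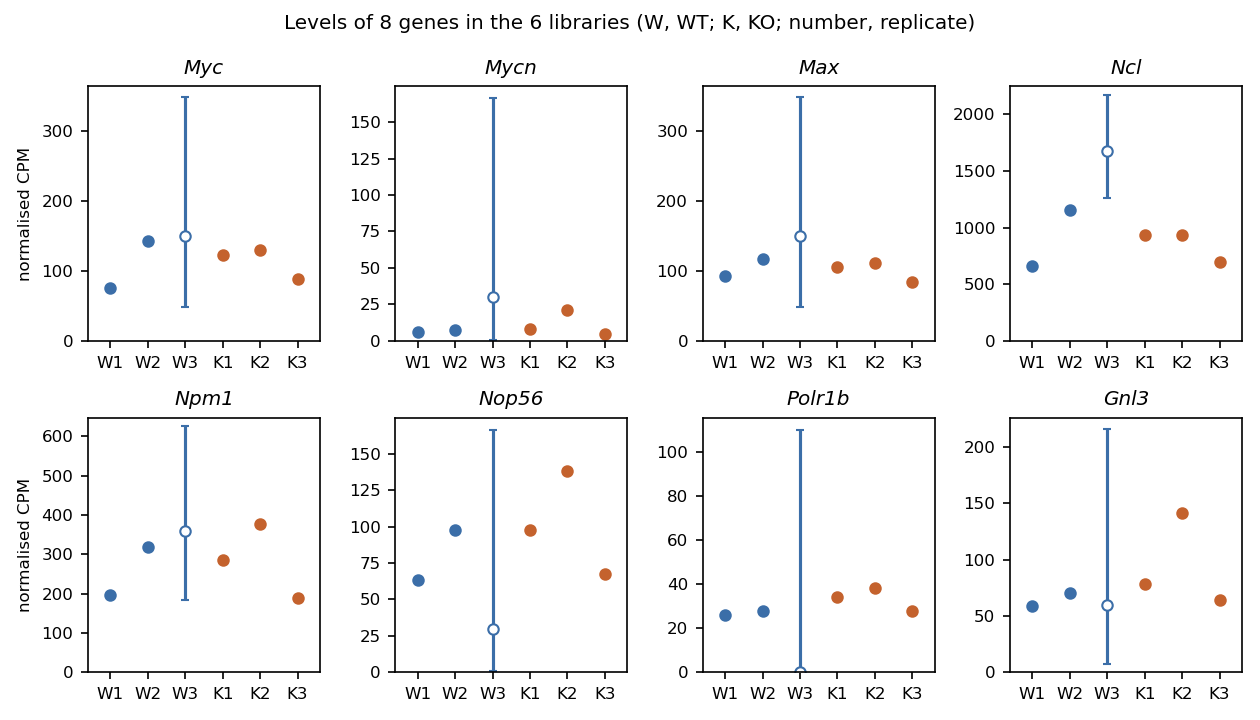
Normalised CPM of 8 genes in each library (blue WT, orange KO; W1 to W3 and K1 to K3 are replicates). WT replicate 3 is drawn as an open circle with the exact 95% Poisson interval of its reads, which for every gene but Ncl spans the level of each KO library; deep libraries of the 2 genotypes overlap except for Polr1b.

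Other genes of the MYC network formed a list of 14, the MXD and MNT repressors that compete for MAX, the MLX branch and cofactors of MYC, of which 12 were tested. None was called higher or lower, and 0 had an unadjusted p under 0.05 by edgeR, with 7 positive and 5 negative values and a median log2 fold change of 0.02. Mxd1, a MAX partner of maturing cells, was the most read of the MXD genes at 675 CPM in WT replicate 1, 475 CPM in WT replicate 2 and 557, 404 and 495 CPM in KO (log2 fold change -0.078, SE 0.36). Mycl had 0 reads in every library.

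RNA polymerase I was represented by its large subunits and a promoter factor. Polr1b, the second largest subunit, stood at 25.9 CPM in WT replicate 1, 28.00 CPM in WT replicate 2 and 34.5, 38.4 and 28.04 CPM across KO replicates 1 to 3, with 0 reads in WT replicate 3. Every KO library lay above both deep WT libraries, though KO replicate 3 and WT replicate 2 were nearly equal, and the difference did not pass (log2 fold change 0.38, SE 0.37, 95% interval -0.43 to 1.20). Polr1a, the largest subunit, was at 60.8 CPM in WT replicate 1, 47.8 CPM in WT replicate 2 and at 59.3 ± 3.71 CPM (SD, n = 3) in KO, with 0 reads in WT replicate 3 and overlap between the groups (log2 fold change 0.23, SE 0.38). Ubtf, which binds ribosomal DNA as a cofactor of the polymerase, was the most read of the 3, at 156 CPM in WT replicate 1, 191 CPM in WT replicate 2 and 161 ± 6.23 CPM (SD, n = 3) in KO, with 7 reads in WT replicate 3 (log2 fold change -0.16, SE 0.32, 95% interval -0.86 to 0.53).

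Among the box C/D snoRNP proteins, which guide methylation of ribosomal RNA, Nop56 and Nop58 form the core beside the methyltransferase fibrillarin. Nop56 stood at 63.2 CPM in WT replicate 1, 97.42 CPM in WT replicate 2 and 97.54, 138 and 67.6 CPM across KO replicates 1 to 3, with 1 read in WT replicate 3 (log2 fold change 0.42, SE 0.40). KO replicate 2 was the highest library, KO replicate 1 was level with WT replicate 2, and KO replicate 3 lay beside WT replicate 1. The log2 fold change was 0.13 without KO replicate 2 and 0.80 without WT replicate 2. Nop58 was likewise highest in KO replicate 2 and lowest in WT replicate 1, at 105 CPM in WT replicate 1, 141 CPM in WT replicate 2 and 129.6, 169.6 and 106 CPM across KO replicates 1 to 3, with 4 reads in WT replicate 3 (log2 fold change 0.14, SE 0.34, 95% interval -0.61 to 0.89). Rrp9, a protein of the U3 particle, ranged from 21.0 CPM in WT replicate 1 to 44.5 in KO replicate 2.

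Fbl, which encodes fibrillarin, was the lowest of the 40 genes per kilobase at 5.58 CPM. It stood at 6.82 CPM in WT replicate 1, 7.44 CPM in WT replicate 2 and 5.43, 2.53 and 5.15 CPM across KO replicates 1 to 3, with 0 reads in WT replicate 3, so that both deep WT libraries lay above all KO libraries (log2 fold change -0.65, SE 0.49, 95% interval -1.74 to 0.43). Of the 50-base stretches in its coding sequence, 86.4% also occur in another annotated gene, chiefly Gm5812, and reads that match 2 places were not counted, so its level is uncertain. The same holds for Npm1 (78.4% of stretches), Odc1 (68.3%), Mrto4 (43.7%), Nop56 (40.4%), Pes1 (32.8%), Wdr12 (26.1%) and Rrs1 (12.0%). In the other 32 genes under 5% of the stretches were shared.

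The box H/ACA snoRNP, which converts uridine to pseudouridine, holds dyskerin (Dkc1), Gar1 and Nhp2, and Nolc1 is its nucleolar chaperone. Nhp2 stood at 56.2 CPM in WT replicate 1, 131 CPM in WT replicate 2 and 89.4, 80.5 and 62.0 CPM across KO replicates 1 to 3, with 3 reads in WT replicate 3. The deep WT libraries were the lowest and the highest, and KO lay between them (log2 fold change -0.27, SE 0.39, 95% interval -1.12 to 0.58). Nolc1 repeated this order at 87.6 CPM in WT replicate 1, 172 CPM in WT replicate 2 and 134, 133 and 105 CPM across KO replicates 1 to 3, with 7 reads in WT replicate 3 (log2 fold change -0.19, SE 0.38). Gar1 and Dkc1 ranged from 21.9 to 40.3 and from 49.4 to 72.8 CPM in the deep libraries, with the genotypes interleaved.

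Small subunit assembly was covered by 8 genes, with log2 fold changes from -0.21 to 0.24 and a median of 0.02. Heatr1, a scaffold of the small subunit processome, was the most read of them and differed widely within each genotype, at 125 CPM in WT replicate 1, 56.6 CPM in WT replicate 2 and 74.3, 86.7 and 127 CPM across KO replicates 1 to 3, with 4 reads in WT replicate 3 (log2 fold change 0.033, SE 0.40, 95% interval -0.85 to 0.92). Here WT replicate 1 and KO replicate 3 were high, the reverse of Myc. Utp20, another long member of the processome, also stood high in these, from 40.1 CPM in WT replicate 2 to 62.5 in KO replicate 3. Nop14, which joins early particles, stood at 42.2 CPM in WT replicate 1, 49.7 CPM in WT replicate 2 and 51.0 ± 8.41 CPM (SD, n = 3) in KO, with 0 reads in WT replicate 3 (log2 fold change 0.24, SE 0.38). Rcl1, a processome protein related to RNA cyclases, was at 22.7 CPM in WT replicate 1, 19.78 CPM in WT replicate 2 and 17.1, 15.7 and 19.73 CPM across KO replicates 1 to 3, with 0 reads in WT replicate 3. All KO libraries lay under the deep WT libraries, although KO replicate 3 and WT replicate 2 were nearly equal (log2 fold change -0.21, SE 0.38, 95% interval -1.06 to 0.63). The remaining genes of this step, Noc4l, Wdr43, Rrp12 and Tsr1, overlapped between genotypes, and Tsr1, a late factor whose promoter window also holds the E-box, was the steadiest of all 40, with 1.14-fold between its highest and lowest deep library.

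Large subunit assembly was covered by 9 genes, with log2 fold changes from -0.23 to 0.16 and a median of -0.02, and all 9 overlapped between the genotypes. The PeBoW complex (Pes1, Bop1 and Wdr12), which matures the large subunit RNA, had KO means of 80.6 ± 4.01 CPM (SD, n = 3) for Pes1, 65.9 ± 5.29 CPM (SD, n = 3) for Bop1 and 35.3 ± 3.65 CPM (SD, n = 3) for Wdr12. The WT libraries of each lay on both sides of these means, at 67.3 CPM in WT replicate 1, 94.3 CPM in WT replicate 2 for Pes1, 64.0 and 80.7 for Bop1 and 30.3 and 42.7 for Wdr12. Noc2l, the most read of the 9, stood at 115 CPM in WT replicate 1, 161 CPM in WT replicate 2 and 129.9, 152 and 128 CPM across KO replicates 1 to 3 (log2 fold change 0.15, SE 0.38, and -0.022 without WT replicate 3, which had 1 read). Nop16, a short gene that answers strongly to MYC in other systems, stood at 26.2 CPM in WT replicate 1, 63.0 CPM in WT replicate 2 and 47.7, 46.0 and 27.7 CPM across KO replicates 1 to 3, with 3 reads in WT replicate 3 (log2 fold change -0.23, SE 0.44, 95% interval -1.20 to 0.73). Its deep WT libraries differed 2.40-fold from each other and enclosed all KO libraries. Mrto4, Wdr74, Rrs1 and Nop2, the last a methyltransferase of the large subunit RNA, had maximum to minimum ratios of 2.04, 1.75, 1.22 and 1.39 over the deep libraries.

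The abundant nucleolar proteins included the highest levels of the set. Ncl (ENSMUSG00000026234.12, minus strand of chromosome 1, 86344719 to 86359400, GRCm38), which encodes nucleolin, led at 414 CPM per kilobase, and stood at 659.5 CPM in WT replicate 1, 1158 CPM in WT replicate 2 and 935, 936 and 698 CPM across KO replicates 1 to 3 (log2 fold change -0.41, SE 0.42, 95% interval -1.32 to 0.51). WT replicate 3 held 56 Ncl reads (exact 95% interval 42.3 to 72.7), where the KO mean would give 28.7 and the mean of the deep WT libraries 30.4. It was the 1 gene of the 40 whose interval in that library left out the KO mean, and without that library the value was -0.088. As shares of gene reads, Ncl took 0.201% in WT replicate 3 (95% Wilson interval 0.155% to 0.260%) against 0.0634% to 0.113% in the deep libraries, while the other 39 genes together took 0.326% (0.266% to 0.400%) against 0.249% to 0.329%. Npm1, the ribosome chaperone nucleophosmin, followed at 312 CPM per kilobase, with 196 CPM in WT replicate 1, 319 CPM in WT replicate 2 and 287, 378 and 188 CPM across KO replicates 1 to 3, 12 reads in WT replicate 3 and overlap between the groups.

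Gnl3, the nucleolar GTPase nucleostemin of stem and progenitor cells, had the lowest p of the set. It stood at 58.8 CPM in WT replicate 1, 70.8 CPM in WT replicate 2 and 78.8, 142 and 64.0 CPM across KO replicates 1 to 3, with 2 reads in WT replicate 3 (log2 fold change 0.56, SE 0.38, 95% interval -0.29 to 1.40, adjusted p = 1.00 by edgeR). KO replicate 2 was high, while KO replicate 3 lay between the deep WT libraries, and the log2 fold change was 0.15 without KO replicate 2 and 0.81 without KO replicate 3. Ddx21, a helicase that couples RNA polymerase I with processing, ranged from 137 to 189 CPM, and Mybbp1a, a MYB-binding nucleolar protein whose promoter window holds the E-box, from 166 to 228 CPM, both with overlap.

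Of the metabolic genes that MYC drives, Srm and Odc1 make polyamines and Cad makes pyrimidines, and Pprc1 is a growth-regulated coactivator. Srm stood at 54.9 CPM in WT replicate 1, 116 CPM in WT replicate 2 and 105, 104 and 71.5 CPM across KO replicates 1 to 3, with 0 reads in WT replicate 3 (log2 fold change 0.28, SE 0.46, 95% interval -0.73 to 1.28). Its KO libraries all lay between the deep WT libraries, and the log2 fold change was 0.025 without WT replicate 1 and 0.96 without WT replicate 2. Pprc1 stood at 59.2 CPM in WT replicate 1, 53.5 CPM in WT replicate 2 and 61.6, 88.4 and 71.3 CPM across KO replicates 1 to 3, with 1 read in WT replicate 3. All KO libraries lay above both deep WT libraries, the single read in WT replicate 3 sets no level on either side, and the difference did not pass (log2 fold change 0.44, SE 0.33, 95% interval -0.28 to 1.16). Cad, with 87.4 CPM in WT replicate 1, 77.0 CPM in WT replicate 2 and 75.3 ± 9.01 CPM (SD, n = 3) in KO, and Odc1, at 42.1 ± 3.24 CPM (SD, n = 3) in KO, overlapped between groups (Cad log2 fold change -0.086, SE 0.31).

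Counted over the deep libraries, 4 of the 40 genes (10%) had groups without overlap, Polr1b and Pprc1 higher and Fbl and Rcl1 lower in KO, against a background of 8.66% of all tested genes (4.79% higher and 3.87% lower). These shares are near the background. WT replicate 3 is too shallow to order these genes.

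A further 88 genes of ribosome biogenesis, among them other subunits of RNA polymerase I, processome proteins and export factors, were listed apart from the 40. Of these 86 were matched and tested, 0 were called in either direction, and 0 had an unadjusted p under 0.05 by edgeR, with 45 positive and 41 negative values and a median log2 fold change of 0.00. Their lowest p belonged to Rrp15, a large subunit factor, at 21.3 CPM in WT replicate 1 and 29.2 in WT replicate 2, with all KO libraries from 16.8 to 22.4 CPM (log2 fold change -0.31, SE 0.36).

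The 40 genes stood at different levels in libraries of the same genotype. The median absolute difference between WT replicates 1 and 2 was 0.43 log2 units. Relative to each gene's mean over the deep libraries, the median of the 40 was -0.24 and 0.20 log2 units in WT replicates 1 and 2, and 0.079, 0.13 and -0.13 across KO replicates 1 to 3. Over all tested genes these medians ran from 0.00 to 0.01, and the 86 further genes of ribosome biogenesis had -0.18 and 0.17 in WT and 0.047, 0.079 and -0.097 in KO. By role-group median, the box H/ACA proteins were farthest apart, with -0.50 and 0.42 in WT replicates 1 and 2. The RNA polymerase I medians were closest, at -0.082 and -0.13, although its genes went opposite ways. From WT replicate 1 to 2, Polr1a changed by -0.35, Polr1b by 0.11 and Ubtf by 0.29 log2 units.

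**Figure D3:**
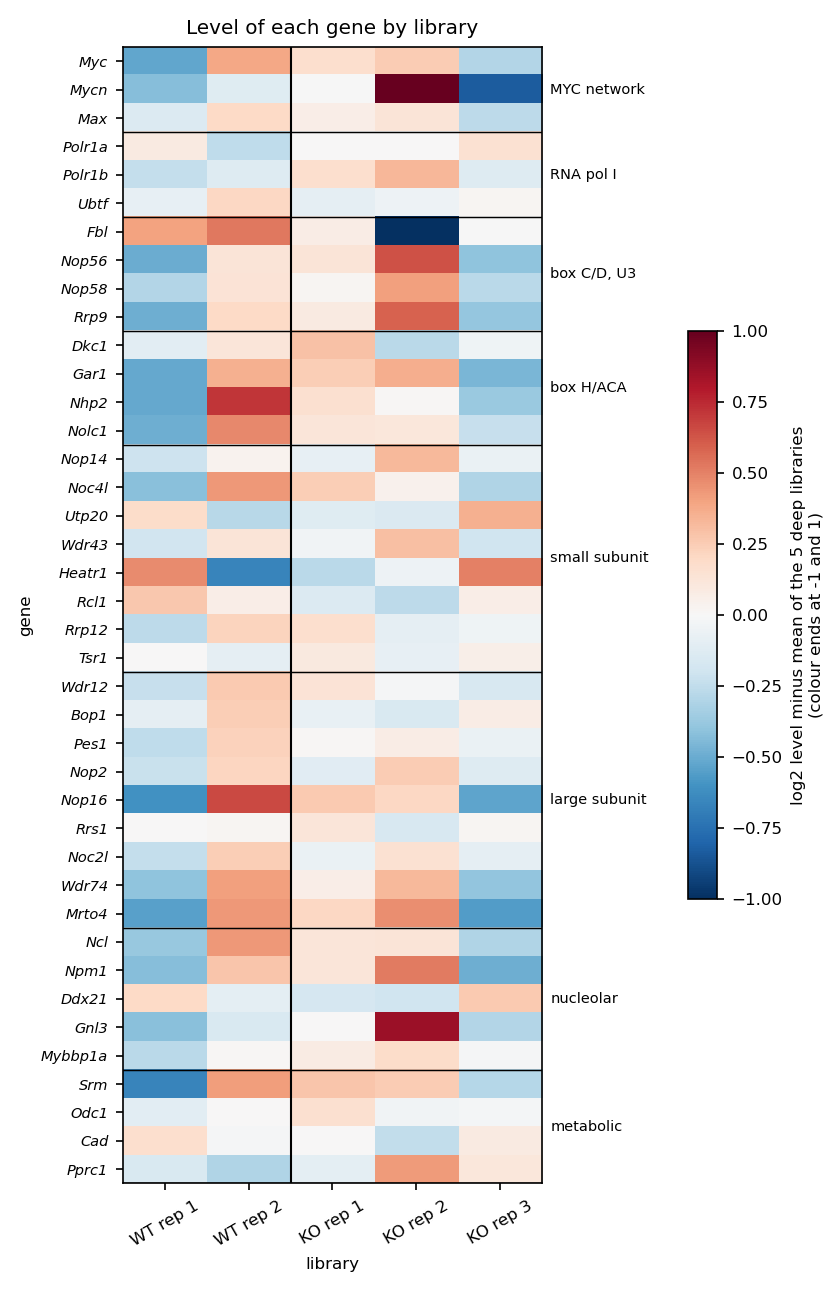
Level of each of the 40 genes in each deep library as a log2 difference from the gene's mean over the 5 libraries (red above, blue below; black lines separate the genotypes and the role groups). WT replicate 1 and KO replicate 3 are blue for most genes, Heatr1 and Utp20 run the other way, and Mycn and Gnl3 are highest in KO replicate 2.

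WT replicate 1 and KO replicate 3 were the lowest pair of the deep libraries for 23 of the 40 genes (57.5%), against 28.4% of all tested genes, and the highest pair for 5 (12.5%), against 29.3%. This pair was singled out after its values were seen, and the counts describe these libraries and not a genotype. Myc, Mycn, Max, Nop56, Nop58, Nolc1, Ncl, Npm1 and Srm were among the 23, and the 5 were Polr1a, Utp20, Heatr1, Ddx21 and Cad. Coding sequences had a median length of 1425 bases in the 23 and 6429 bases in the 5. Across the 40 genes, the log2 difference between WT replicates 2 and 1 and the log coding length had a Pearson r of -0.68 and a Spearman rho of -0.61, and between KO replicates 1 and 3 they had -0.72 and -0.71. Between KO replicates 2 and 3 they had -0.40 and -0.45. Across 11507 tested genes with a coding length, r was -0.32 for the WT pair, -0.26 between KO replicates 1 and 3 and -0.24 between KO replicates 2 and 3. The genes share these libraries, so the correlations describe them only.

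**Figure D4:**
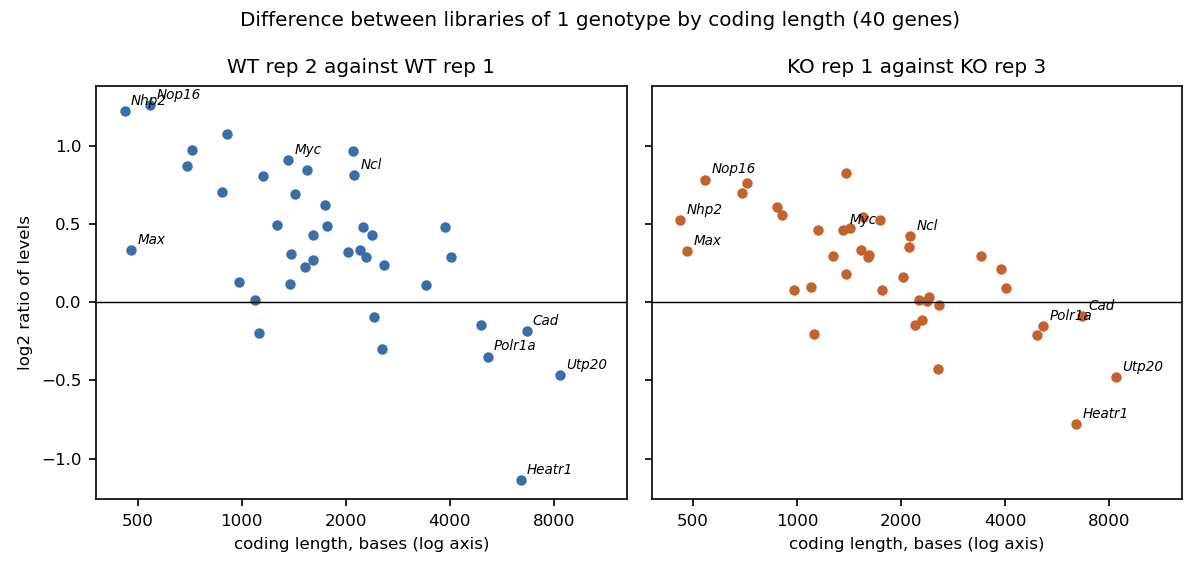
Log2 ratio of levels between 2 WT libraries (left) and 2 KO libraries (right) against coding length on a log axis, 1 point per gene. Short genes such as Nhp2 and Nop16 lie above 0 and the long Heatr1 and Utp20 below 0 in both panels.

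Mapping measures set WT replicate 1 and KO replicate 3 apart from the other deep libraries. Multimapping reads were 14.4% and 15.0% in WT replicate 1 and KO replicate 3 and 17.7% to 27.0% in the other deep libraries, and genes of ribosomal proteins took 0.664% and 0.722% of gene reads against 1.23% to 1.49%. Among cell type marker sums, that of the monocyte and macrophage genes was highest in WT replicate 1 and KO replicate 3. Its genes were split. Csf1r and Adgre1 were highest in this pair, Ccr2 was lowest there (59.7 and 43.5 CPM), and Cd68 and C1qa gave neither order. Both neutrophil sums were low in WT replicate 1 and KO replicate 3 and also in KO replicate 2. Mmp8 of the mature list went another way, lowest in WT replicate 2 at 145 CPM, against 227 to 241 CPM in the other deep libraries. The other lists did not set the pair apart by their sums. All 37 genes of the 7 marker lists were read in every deep library. The 5 primary neutrophil granule genes, including Mpo, summed to 2054 and 9017 CPM in WT replicates 1 and 2 and to 6858, 2063 and 1737 CPM in KO replicates 1, 2 and 3, and the 6 genes of mature neutrophils to 43320 and 91892 CPM and to 83029, 39498 and 34087 CPM. The 5 monocyte and macrophage genes summed to 1366 and 563.6 CPM in WT and 727, 971 and 1467 CPM in KO, and the 6 genes of mast cells and basophils to 4769 and 3441 CPM and to 2674, 8650 and 3903 CPM. The 6 proliferation genes summed to 2273 CPM in WT replicate 1, 2250 CPM in WT replicate 2 and 2138, 1496 and 2028 CPM in KO. Mki67 and Top2a made up most of each sum. WT replicate 1 and KO replicate 3 were the highest pair for Mki67 (1099 and 965 CPM) and the lowest for Cdk1 (143 and 138 CPM). The other genes of this list gave neither order. The 4 dendritic cell genes ranged from 297 to 592.8 CPM and the 5 erythroid genes from 18.4 to 113 CPM in the deep libraries. Fewer cells of a type and less RNA per cell cannot be told apart in bulk samples. KO replicate 2 was the highest deep library for 14 of the 40 genes, among them Mycn, Gnl3, Nop56 and also Polr1b and Pprc1. It was the lowest for 7, among them Fbl and Rcl1. Other libraries stood out more often, with WT replicate 2 highest for 16 and WT replicate 1 lowest for 22. The shares over all tested genes were not counted, so these counts have no background. KO replicate 2 was the library with 15.7% mitochondrial and 27.0% multimapping reads. The part of cell makeup, RNA quality and mapping in the levels of the 40 genes was not tested.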

How the data were processed

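Polyadenylated RNA of 6 libraries was counted per gene. Counts were deposited by the authors, with 1 table per run, and WT replicate 3 has 2 runs, which were summed. Per the submitters' processing notes, STAR 2.5.1b, GRCm38 and DESeq2 were used, with no roles stated, and for the annotation release a name is not given in the sources used. Column 4, the reads antisense to each gene, was taken because a stranded kit stands in the labels' protocols, and it held 95.6% to 97.5% of stranded gene reads. Rows that name no gene held 25.6% to 47.8% of reads and were left out. Symbols matched 46488 of 46983 identifiers, and coordinates and coding lengths are from GENCODE M21 (GRCm38).

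The filter was filterByExpr, the scaling TMM, and the test that of edgeR 4.0.16 (robust quasi-likelihood, two-sided, genotype as the only term), with Benjamini-Hochberg adjustment over 12292 genes and a threshold of 0.05. Standard errors are the log2 fold change over the root of F, and 95% intervals use the test's degrees of freedom. CPM per kilobase divides by the longest coding sequence, which overstates genes with long untranslated ends. Scripts were tested on simulated counts with a fixed dispersion and only large changes in well-read genes, so the power for small changes is not shown. The 40 genes, the lists and the naming rule were chosen with earlier results of these data known. Fitted values are printed for Psip1, Myc, Max, Mycn and, per role group, the 2 genes of lowest p and the most read one. Cad, Rrp15 and Mxd1 were named beside these after their values were seen. Alternatives covered scaling, filter, strand, runs, replicate block, DESeq2 1.42.0, limma-voom 3.58.1 and leaving out each library.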

Additional observations from a re-analysis of the deposited data

How the results depend on the processing

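None of the 40 genes was called in either direction in any of 15 alternatives, and their lowest adjusted p was 0.998. The median log2 fold change of the 40 ran from -0.028 to 0.25 when 1 library was left out, with the highest value, 0.25, without WT replicate 2. In DESeq2, which had a median of -0.32 over all genes tested, the 40 had 0.09. Over all genes, 0 were called higher and 0 lower, against 4 and 5 without a low-count filter, 8 and 5 with the replicate block, 0 and 2 with scaling by library size only, 0 and 1 by DESeq2, and 7 and 5 by DESeq2 without WT replicate 3, which was added with the data in view. Leaving out 1 library gave 0 to 2 higher and 0 to 5 lower, with 5 calls in all without WT replicate 1 or KO replicate 3, 3 without WT replicate 2 and 2 without KO replicate 1. Psip1 passed the threshold without a filter (-2.28), with the replicate block (-2.33) and by DESeq2 without WT replicate 3 (-2.32), and ran from -2.45 to -2.12 when 1 library was left out.

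The sign turned for 9 of the 20 named members, and the cause was not tested. Myc was at 0.018 by DESeq2, 0.043 by DESeq2 without WT replicate 3, 0.095 by limma-voom, 0.029 without a filter, 0.046 with the replicate block and 0.026 with size factors. Heatr1 was at -0.033 with the block and -0.020 by library size only, and Noc2l at -0.034 by DESeq2 without WT replicate 3. With 1 library left out the values ran from -0.29 to 0.35 for Myc, -0.25 to 0.011 for Max, -0.22 to 1.04 for Mycn, -0.050 to 0.34 for Nop58, -0.62 to 0.36 for Nhp2, -0.50 to 0.13 for Nolc1, -0.34 to 0.61 for Heatr1, -0.67 to 0.38 for Nop16 and -0.022 to 0.50 for Noc2l. The sign held for the others, with 0.12 to 0.52 for Polr1a, 0.28 to 0.53 for Polr1b, -0.23 to -0.066 for Ubtf, -0.83 to -0.40 for Fbl, 0.13 to 0.80 for Nop56, 0.11 to 0.43 for Nop14, -0.29 to -0.020 for Rcl1, 0.15 to 0.81 for Gnl3, -0.65 to -0.088 for Ncl, 0.025 to 0.96 for Srm and 0.29 to 0.59 for Pprc1. The sign turned without WT replicate 2 for Myc, Nhp2, Nolc1, Heatr1 and Nop16, without WT replicate 3 for Myc and Noc2l, without KO replicate 2 for Mycn and Nop58, and without KO replicate 3 for Myc, Max, Heatr1 and Nop16. Where this left 2 libraries in a group, the spread was pooled over both groups.

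The groups share replicate numbers, but these are not stated to pair samples, so the numbers were not used as pairs. Deviations of same-numbered libraries had correlations of -0.42, -0.12 and -0.30 across genes. The last involves WT replicate 3, which is too shallow for its value to decide. With the replicate block 13 genes were called in all, 0 of them among the 40, and 0 of the 40 intervals stayed inside 2-fold. No WT library correlated best with the KO library of its own number.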
